A study of Arabidopsis thaliana with 20 samples.

Results

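Nuclear genes that serve carbon fixation in the chloroplast were followed here in Arabidopsis thaliana: SBPASE (AT3G55800), PRK (AT1G32060) and BSD2 (AT3G47650). They were chosen by name, with earlier results of these data known, as genes that are each the sole gene of an array feature. They thus made up 3 of the 692 features that the platform annotation pairs with 1 gene, on an array of 3439 features. SBPASE lies on chromosome 3, PRK on chromosome 1 and BSD2 on chromosome 3 in the RefSeq gene table, which lists BSD2 under its locus tag alone. Total RNA was compared between wild-type plants (WT) and plants titled hcf145, all of the ecotype Wassilevskija, with 10 arrays in each group, numbered 1 to 10. The labels describe hcf145 as unable to assemble photosystem I properly. Their source names give gun5, another mutant, and the samples are called hcf145 here after their titles. HCF145 and CHLH, the gene affected in gun5, were the sole gene of 0 features, so the genotype could not be checked. The labels give no age, tissue, growth condition or treatment.

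The Calvin cycle is the set of reactions in the chloroplast stroma that uses ATP and NADPH from the light reactions to turn carbon dioxide into sugar phosphates. Sedoheptulose-1,7-bisphosphatase, the product of SBPASE, removes a phosphate from sedoheptulose bisphosphate and commits carbon to regeneration of the acceptor. Phosphoribulokinase, the product of PRK, carries out the last step of that regeneration and makes ribulose bisphosphate, the substrate of Rubisco. Both enzymes are switched on in the light through the reduction of cysteine pairs by thioredoxin. BSD2 is a zinc-finger chaperone that holds folded large subunits of Rubisco until the small subunits join them, and it takes no part in the cycle's chemistry.

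In the deposited values, BSD2 fell to 48.7% of its mean WT intensity in hcf145, whereas SBPASE stood at 61.6% and PRK at 99.5%. After quantile normalisation the fall of BSD2 passed the test across all features on 20 arrays, and the differences of SBPASE and PRK did not. In that test 29.1% of all features were called. On averages of adjacent arrays BSD2 passed narrowly (limma adjusted p = 0.0448, with 7.39% of all features called). There its call held in only 1 of 5 fits that left out 1 averaged pair. Without normalisation the difference of SBPASE passed too on 20 arrays, but not on averages of adjacent arrays. The deposited intensities are on a linear scale in arbitrary units. For the tests they were taken to log2 and quantile normalised, which gives every array the same distribution of values. A log2 fold change is the mean in hcf145 minus the mean in WT.

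Adjacent array numbers shared their deviations, which bears on every p-value below. For 20 of 20 arrays the most similar array of the group was the adjacent number (1 with 2, 3 with 4, up to 9 with 10). Their consensus correlation in limma was 0.661. No label ties an array to a plant, so what the p-values measure is the spread among these arrays, and this may be technical. The tests of SBPASE, PRK and BSD2 are therefore given for the 20 arrays and again for 5 against 5 averages of adjacent arrays. Arrays 9 and 10 of both groups stood apart on the second principal component, which held 18.3% of the variance. The summed intensity of an array lay between 3319 and 3640. Precision is limited by the number of arrays.

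BSD2 is the chaperone among the 3 genes. Its intensity in WT ran from 5.69 to 11.5 with a median of 7.24, and in hcf145 from 2.31 to 6.84 with a median of 3.50. Of the 10 hcf145 arrays, 8 lay below the lowest WT array, and the groups overlapped only through hcf145 arrays 1 and 2. As averages of adjacent arrays, WT stood at 10.9 on arrays 1 and 2, 5.83 on 3 and 4, 6.67 on 5 and 6, 7.24 on 7 and 8, and 9.39 on 9 and 10. The hcf145 averages in the same order were 6.55, 2.46, 3.47, 3.69 and 3.32. Arrays 1 and 2 were thus the highest of each group and arrays 3 and 4 the lowest of each.

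The mean intensity of BSD2 fell from 8.0 ± 1.98 (WT) to 3.90 ± 1.48 (hcf145) (SD, n = 10 each). Normalised, its log2 fold change was -1.04 with an SE of 0.19, or 2.05-fold (limma adjusted p = 0.000354). At this threshold 29.1% of all 3287 tested features were called, and 15.9% of the 3287 were called as lower in hcf145. With adjacent arrays averaged, the SE was 0.28 and the limma adjusted p was 0.0448, and 7.39% of all features were called, 3.83% as lower. A log2 fold change at or below that of BSD2 was found for 6.02% of the features tested.

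The call of BSD2 on 20 arrays held in each of the 20 fits that left 1 array out (log2 fold change from -1.14 to -0.96) and where adjacent arrays entered the fit as random blocks (adjusted p = 0.00191 in limma, with 12.9% of all features called). The call on the averages was close to the threshold. It was lost without arrays 3 and 4, 5 and 6, 7 and 8, or 9 and 10 of both groups (limma adjusted p = 0.121, 0.151, 0.146 and 0.0808) and held without arrays 1 and 2 (0.0401). The log2 fold change in these 5 fits ran from -1.12 to -0.95. With 4 averages per group, the share of all features called was itself 1.69%, 0.924%, 0.832% and 9.87% in the first 4 of these fits and 3.47% without arrays 1 and 2. With each array centred on its median instead of quantile normalised it was -0.78, past the threshold on 20 arrays (limma adjusted p = 0.00740, 27% of all features called) and not on the averages (0.140, 5.96% called).

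The labels name no tissue, and of 13 marker genes listed for leaf, root, flower and seed, 2 were measured, both of leaf. PSAN, a photosystem I subunit, stood at 2.75 ± 0.467 in WT and 1.34 ± 0.203 in hcf145 (SD, n = 10 each). LHB1B2, a light-harvesting protein, stood at 17.7 ± 8.73 and 7.40 ± 2.67 (SD, n = 10 each), a value that close relatives of the gene may share. Both means were lower in hcf145, as was that of BSD2. PSAN belongs to the complex that the labels describe as not properly assembled in hcf145. Both markers are photosynthesis genes, so their values cannot separate leaf content from the mutant state. Whether leaf content had a part in the fall of BSD2 was not tested. The means are of deposited values, in which the median feature also stood lower in hcf145, at a log2 fold change of -0.32. In RNA from whole samples, fewer cells of a type and less RNA per cell cannot be told apart.

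**Figure D1:**
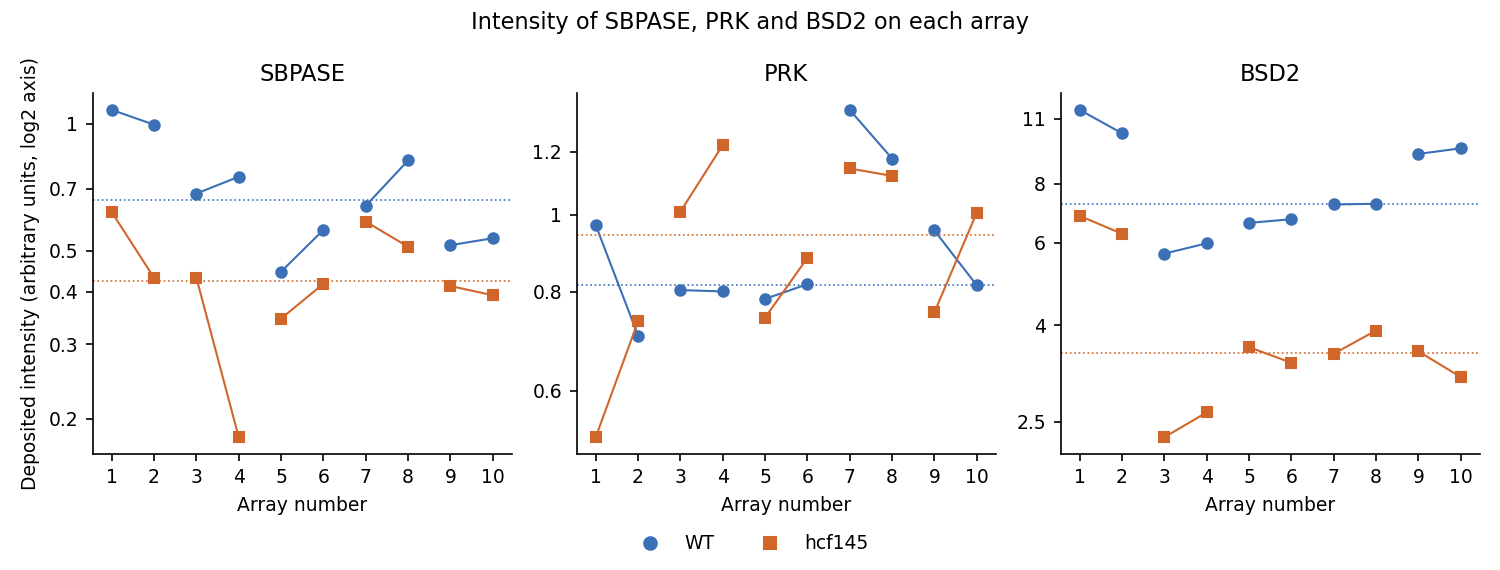
Deposited intensity (arbitrary units, log2 axis) of SBPASE, PRK and BSD2 on each of the 10 WT arrays (circles) and 10 hcf145 arrays (squares), with adjacent arrays joined and the median of each group dotted. For BSD2, 8 hcf145 arrays lie below every WT array, while for PRK the groups are intermixed.

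SBPASE acts in the regeneration phase of the cycle. Its intensity in WT ran from 0.446 to 1.08 with a median of 0.661, and in hcf145 from 0.181 to 0.617 with a median of 0.424. In these deposited values 7 of 10 hcf145 arrays lay below the lowest WT array, and the highest hcf145 array was below 6 of the WT arrays. The averages of adjacent arrays in WT were 1.04, 0.715, 0.503, 0.728 and 0.525, from arrays 1 and 2 to arrays 9 and 10. In hcf145 they were 0.524, 0.306, 0.381, 0.548 and 0.402 in the same order. After quantile normalisation only 1 hcf145 array, number 4, lay below the lowest WT array.

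The mean intensity of SBPASE was 0.701 ± 0.209 in WT and 0.432 ± 0.123 in hcf145 (SD, n = 10 each). The normalised log2 fold change was -0.43 ± 0.19 (SE) with a 95% interval of -0.83 to -0.04, and it did not pass (limma p = 0.0319, adjusted p = 0.0893). With adjacent arrays averaged the interval was -0.97 to 0.11 (limma adjusted p = 0.289). Without normalisation, the log2 fold change was -0.71, past the threshold on 20 arrays (limma adjusted p = 0.0117) and not on the averages (0.109). Without normalisation, 35.9% of all features were called on the 20 arrays, 28.4% as lower, and 10.8% on the averages, 8.85% as lower. The median feature then stood at -0.32, on the same side as SBPASE. Without WT array 5, the lowest SBPASE value of that group, the normalised log2 fold change was -0.53 and passed (limma adjusted p = 0.0366). Without hcf145 array 4 it was -0.32 (0.159).

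PRK acts at the end of the regeneration phase. Its intensity in WT ran from 0.704 to 1.36 with a median of 0.816, and in hcf145 from 0.525 to 1.22 with a median of 0.944. The groups overlapped almost wholly, with 9 of 10 hcf145 arrays inside the WT range. The averages of adjacent arrays in WT were 0.838, 0.802, 0.801, 1.27 and 0.885, from arrays 1 and 2 to arrays 9 and 10, and in hcf145 0.629, 1.12, 0.812, 1.13 and 0.880. The averages of arrays 7 and 8 were the highest of each group, in hcf145 by little over those of arrays 3 and 4. After quantile normalisation arrays 3 and 4 were the highest of hcf145 (0.33 against 0.19 on the log2 scale).

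The mean intensity of PRK was 0.918 ± 0.204 in WT and 0.914 ± 0.223 in hcf145 (SD, n = 10 each). The normalised log2 fold change was 0.17 ± 0.17 (SE; limma adjusted p = 0.467), with a 95% interval of -0.18 to 0.53 on 20 arrays. On the averages the interval was -0.37 to 0.72 (limma adjusted p = 0.683). The sign of this small difference depended on the scaling: as deposited it was -0.02 (interval -0.37 to 0.32), and with median centring 0.28. A fixed 2.05-fold fall, the estimate for BSD2, lay outside each of these intervals. The BSD2 estimate had a 95% interval of its own, -1.65 to -0.43 on the averages. A direct comparison of the genes is given below as ratios.

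**Figure D2:**
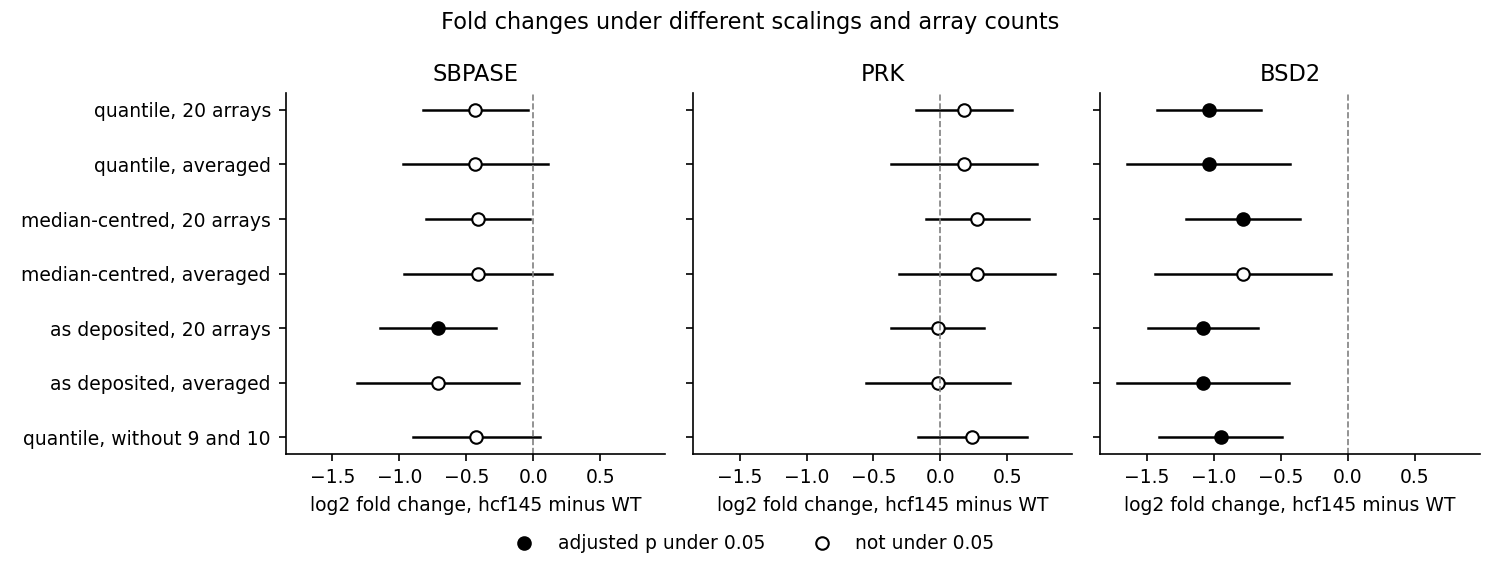
Log2 fold change (hcf145 minus WT, points) with its 95% interval (lines) for each gene under quantile normalisation, median centring and no scaling, on 20 arrays and on averages of adjacent arrays, and without arrays 9 and 10; filled points have a limma adjusted p under 0.05. BSD2 is filled in 6 of the 7 settings, SBPASE in the deposited values on 20 arrays alone, and PRK in none.

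The 3 genes were then compared with each other within arrays, since a factor that scales a whole array cancels in the ratio of its features. Such a ratio has no meaning as a level, because features differ in their response, and only its difference between the groups was tested. Adjacent arrays were averaged, giving 5 values per group, and 3 ratios were compared with exact two-sided permutation tests, whose smallest possible p is 0.00794.

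The log2 ratio of BSD2 to PRK was 3.11 ± 0.47 in WT and 2.05 ± 0.83 in hcf145 (SD, n = 5 each). The difference of -1.06 ± 0.43 (SE) had an exact permutation p of 0.0397, which did not pass after adjustment over the 3 ratios (0.119). The log2 ratio of SBPASE to PRK differed by -0.69 ± 0.35 (SE; exact permutation p = 0.103, adjusted 0.155). That of SBPASE to BSD2 differed by 0.37 ± 0.24 (SE; exact permutation p = 0.175, adjusted 0.175). With quantile-normalised values, which are not a scaling by 1 factor, the differences in the same order were -1.21, -0.61 and 0.60 (adjusted exact permutation p = 0.0595, 0.127 and 0.0595). An unequal change among the 3 genes was thus not shown with averaged arrays. Leaving out arrays 1 and 2 changed the first 2 of these calls: without them the ratios of BSD2 to PRK and of SBPASE to PRK differed by -1.24 and -0.71, each with an exact permutation p of 0.0286, the smallest that 4 against 4 averages allow (adjusted 0.0429). Without arrays 3 and 4, SBPASE to PRK differed by -0.40 (adjusted exact permutation p = 0.371), and without arrays 9 and 10, SBPASE to BSD2 differed by 0.18 (0.486). With the 20 arrays counted separately the ratios of BSD2 to PRK and of SBPASE to PRK passed (adjusted permutation p = 0.00916 and 0.0268). Matched by array number, the averages of both ratios were lower in hcf145 than in WT throughout, while those of SBPASE to BSD2 went both ways.

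**Figure D3:**
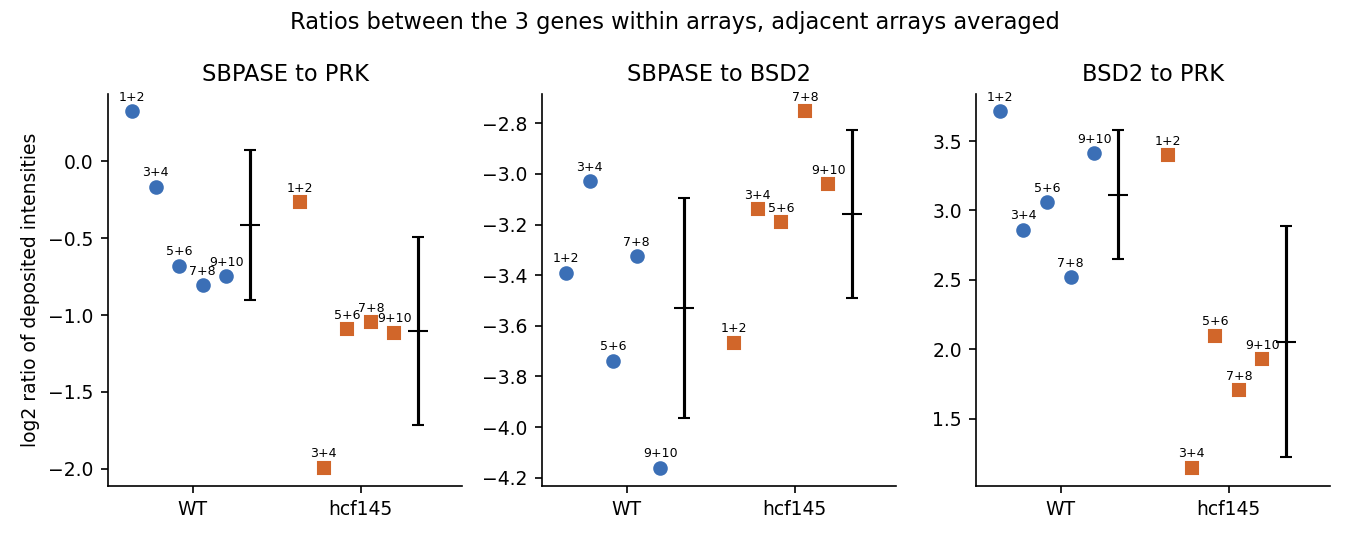
Log2 ratio of deposited intensities between pairs of the 3 genes, each point an average of 2 adjacent arrays (numbers beside it), with the mean and SD of each group as a bar. The hcf145 averages of BSD2 to PRK lie below all WT averages except on arrays 1 and 2, which stand at 3.40.

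Over the 20 arrays the normalised values of SBPASE and BSD2 had a Pearson correlation of 0.63, and 0.47 after the group means were removed. For SBPASE and PRK it was -0.36, and it was -0.03 within WT and -0.49 within hcf145. For PRK and BSD2 it was -0.48, and it was -0.05 within WT and -0.77 within hcf145. Whether these differ between the groups was not tested. These are descriptions over arrays that share deviations in adjacent pairs. The genes also differed in how closely adjacent arrays repeated each other. On the log2 scale the SD within pairs of WT arrays was 0.040 for BSD2, 0.17 for PRK and 0.19 for SBPASE. Within pairs of hcf145 arrays it was 0.13, 0.22 and 0.43. BSD2 was also the brightest (WT mean 8.0, against 0.918 and 0.701), and whether this spread follows brightness was not tested. The SDs of the pair means in WT were 0.34, 0.34 and 0.40. In hcf145, arrays 3 and 4 differed by 1.21 for SBPASE, the largest gap of the 3 genes within a pair.

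Among 545 other single-gene features measured on all arrays, the profiles most like BSD2 over the 20 arrays were those of AT5G15280 (Pearson r = 0.90), AT2G28540 (0.89) and AT5G22620 (0.87). With group means removed these correlations were 0.77, 0.80 and 0.75, and the log2 fold changes of the 3 genes were -1.40, -0.45 and -1.54. Most like SBPASE were AT3G15140 (r = 0.81), AT3G09250 (0.77) and AT3G49740 (0.76), with log2 fold changes of -0.68, -0.56 and -0.75. Most like PRK were AT3G13120 (r = 0.76), AT3G56290 (0.62) and AT2G43180 (0.62), with log2 fold changes of 0.28, 0.84 and 0.78. These genes were picked for likeness on the same 20 arrays, so their values are a description with no test, and the correlations carry the deviations that arrays share across features.

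The rest of the pathway was thinly covered by features with 1 gene. Of 20 Calvin cycle enzymes listed, 2 were measured, SBPASE and PRK, and 0 were called in either direction. Of 15 genes listed for Rubisco folding, assembly and activation, 3 were measured and 1 was called, BSD2, as lower. That list holds chaperonin subunits as a family, without a check that each of them folds Rubisco. Another 3 of the 15 were on features with several genes and were not named. Of 13 genes for redox and complex regulation of the cycle, 2 were measured and 0 called. Of 14 photorespiration genes and of 17 genes for triose phosphate export, starch and sucrose synthesis, 0 were measured. Thus 1 of 7 measured genes was called, and over all features the share called was 29.1%. On averages of adjacent arrays BSD2 alone was again called, and the share was 7.39%. The median log2 fold change of the 7 was -0.03, beside -0.05 over all features tested.

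The other 4 measured genes did not pass in limma with group as the only term. Cpn60beta3 and Cpn60beta4 encode beta subunits of the chloroplast chaperonin, the barrel in which proteins fold. Cpn60beta3 had intensities of 0.419 to 1.08 in WT (median 0.560) and 0.230 to 0.806 in hcf145 (median 0.365), and its log2 fold change was -0.25 ± 0.22 (SE; adjusted p = 0.427 in limma). Cpn60beta4 had a median of 0.227 in WT and 0.169 in hcf145, and its log2 fold change was -0.03 ± 0.30 (SE; adjusted p = 0.945 in limma), whose sign changed with single arrays left out. Both belong to a family of similar genes, so their values are uncertain as those of single genes. The ranges of the groups overlapped for both.

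NTRC encodes a thioredoxin reductase with its own thioredoxin domain that uses NADPH to reduce chloroplast proteins. Its intensity ran from 0.511 to 1.43 in WT (median 0.789) and from 0.703 to 1.85 in hcf145 (median 0.902), and its log2 fold change was 0.40 ± 0.21 (SE; adjusted p = 0.168 in limma). With the array number as a replicate block NTRC passed on the 20 arrays (limma adjusted p = 0.0291) and not on the averages (0.181). The block gave 1239 features called on the 20 arrays, beside 956 without it, and 500 on the averages, beside 243. AT2G04700 had a median of 0.849 in WT and 0.606 in hcf145, but its normalised log2 fold change was 0.13 ± 0.43 (SE; limma adjusted p = 0.855) and -0.16 as deposited. WT array 6 and hcf145 array 3 lay far from the other arrays of their groups.

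**Figure D4:**
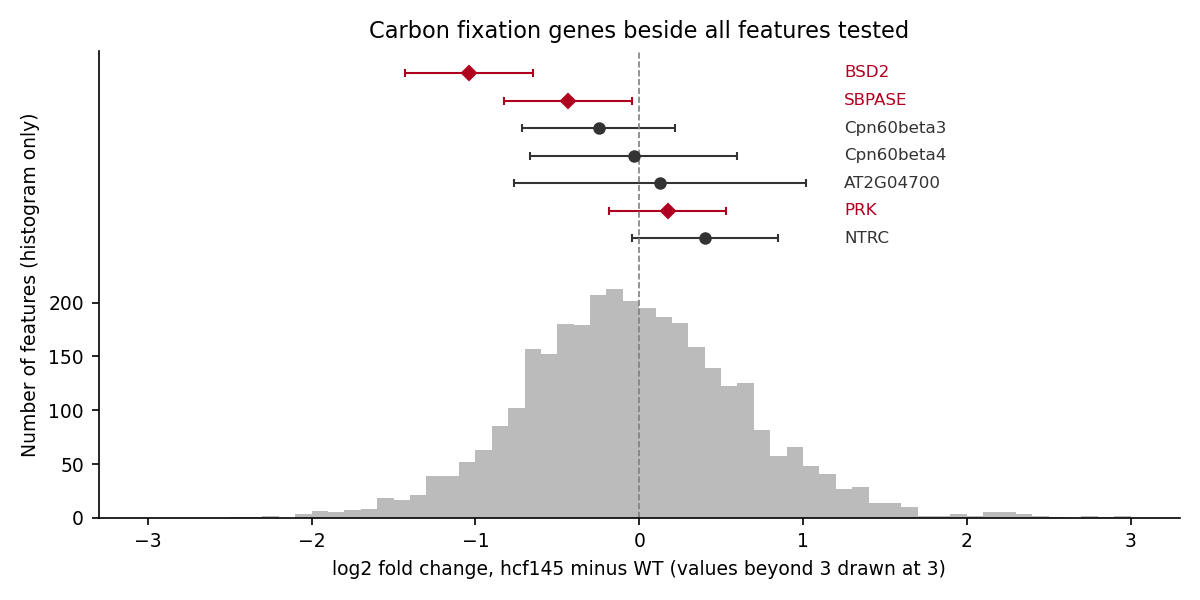
Histogram of the log2 fold changes (hcf145 minus WT, quantile normalised, 20 arrays) of all 3287 tested features. The 7 measured genes of the carbon fixation lists stand above it as points with 95% intervals. BSD2 at -1.04 lies in the lower tail, while SBPASE at -0.43 and PRK at 0.17 lie within the bulk of the features.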

How the data were processed

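The authors deposited intensity values on a linear scale, 1 column for each of the 20 arrays; the unit was read from the values. Scaling, background subtraction, the cap at 100 in hcf145 and the kind of array are not given in the sources used here. Of the 692 single-gene features, 690 matched the RefSeq table of assembly TAIR10.1, used for names and chromosomes only. Zeros were set missing and values were taken to log2 and quantile normalised. A feature needed 5 values or more in each group; 152 did not reach this, and 3287 were tested. The 3 genes had no zeros. Groups were compared with limma 3.58.1 in R 4.3.3 (two-sided, group as the only term, Benjamini-Hochberg over all features tested, threshold 0.05). A run on simulated data checked that added changes were recovered, and it set no limit on false calls. Named genes were the 3 genes, the measured genes of 5 lists, and for each of the 3 the 3 most correlated single-gene features; the leaf markers were added from a fixed marker list. The genes and lists were chosen with earlier results of these data known. As a check on pairing, the deviations of WT and hcf145 arrays of the same number were correlated. The correlation r was 0.07 to 0.36, and over 0.1 for 8 of 10 numbers. Arrays of different numbers were not compared across the groups, so whether this likeness goes with the number was not tested. No label states a pairing and the main tests did not use one. Fits with the number as a replicate block are given below.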

Additional observations from a re-analysis of the deposited data

Results flagged for a closer look

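Single arrays lay far from the other arrays of their group in 3 of the 20 groups of arrays tested, on the normalised log2 scale. Chance gives about 5% of groups where arrays are independent, which adjacent arrays were not. SBPASE stood at -2.15 on hcf145 array 4, with the others from -1.38 to -0.61. Its adjacent array 3 did not share the low value. AT2G04700 stood at -3.62 on WT array 6, with the others from -0.85 to 0.50, and at 1.61 on hcf145 array 3, with the others from -1.34 to 0.10. Its log2 fold change was -0.21 without WT array 6 and -0.11 without hcf145 array 3.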

How the results depend on the processing

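The number of features called depended on how arrays were counted: 956 on the 20 arrays, 243 with adjacent arrays averaged, 425 with them as a random block, 319 averaged without arrays 9 and 10, 356 averaged as deposited and 196 averaged with median centring; the averaged forms of the last pair of scalings were chosen after seeing the data. Leaving out 1 array gave 816 to 987, and leaving out 1 averaged pair 27 to 319. Leaving out 1 array or averaged pair moved SBPASE from -0.57 to -0.32, PRK from 0.01 to 0.26 and BSD2 from -1.14 to -0.95 (log2 fold changes). SBPASE was past the threshold as deposited on 20 arrays (-0.71). PRK turned to -0.021 as deposited, averaged or not. BSD2 was not past the threshold averaged without arrays 9 and 10 (-0.95) or averaged with median centring (-0.78). Averaged, BSD2 also fell short without arrays 3 and 4, 5 and 6, or 7 and 8 (limma adjusted p = 0.121, 0.151 and 0.146). Its averaged call held without arrays 1 and 2 (limma adjusted p = 0.0401). With the array number as a replicate block, averaged arrays gave 500 features and the 20 arrays 1239; BSD2 kept its call (limma adjusted p = 4.40e-05, or 0.0181 averaged), SBPASE and PRK stayed short of it (0.0532 and 0.386), and NTRC passed on the 20 arrays (0.0291) but not averaged (0.181). Paired by number, the ratios of BSD2 to PRK, SBPASE to PRK and SBPASE to BSD2 gave adjusted exact permutation p of 0.0938, 0.0938 and 0.25. The smallest p possible before adjustment was 0.0625, so this paired test could not pass the threshold for any ratio. The ratios of SBPASE to PRK (-0.69) and BSD2 to PRK (-1.06) passed with 20 arrays counted separately; leaving out 1 averaged pair, they ran from -0.80 to -0.40 and from -1.24 to -0.89, and SBPASE to BSD2 from 0.18 to 0.53. Cpn60beta4 turned to 0.045 with zeros at the lowest positive value and ran from -0.23 to 0.32 with arrays left out, and AT2G04700 turned to -0.16 as deposited and ran from -0.21 to 0.28. Signal over background was not given, so it is unknown how near the dim values lay to it.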
